A study of Rattus norvegicus with 6 samples.

Results

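The comparison described here set 2 libraries of rat vascular smooth muscle cells (VSMCs) given interference sequence 2 against SLC2A10 beside 2 libraries of cells given control virus. These are 4 of the 6 libraries of the study, and the other 2 carry interference sequence 3. The titles of the 2 sequence 2 libraries name SiRNA-GLUT10, then the number 2, then 1 or 2; the controls are titled Control with 1 or 2, so the last number was read as the replicate and the number before it as the sequence. The unit of description was the gene locus. Its level was the larger of its summed transcript starts and its summed transcript ends in FPKM, fragments per kilobase of transcript scaled to all fragments mapped in the library, and a locus not listed in a library was set to 0. Of 13685 loci in all libraries, the 10352 (75.6%) with a level of 1 or more in at least 2 of the 4 libraries were kept, and 464 loci were listed in none of the 4. At that limit, the kept locus with the smallest second-highest level stood at 1.00 and the highest one left out at 0.9998, and 162 kept loci were under 1.1.

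The sample labels give all libraries the strain SD (Sprague-Dawley) and the tissue aorta. Under genotype they list SLC2A10-/- for sequence 2 and sequence 3 and wild type for the controls, and the series text speaks of mice. The study itself instead describes sequencing of VSMCs that were grown out of the aorta of rats and given either a virus with a short hairpin RNA (shRNA) or a control virus. The cells are called VSMCs here after that description, which differs from the tissue named in the labels. No age of the animals is given. The labels do not say that replicates came from separate cultures, so each p-value below rests on the spread among the libraries alone, and that spread may be technical.

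SLC2A10 encodes GLUT10, a member of the facilitative sugar transporter family. Loss of the gene in people causes arterial tortuosity syndrome, in which large arteries lengthen and twist, and VSMCs, the contractile cells of the arterial wall, are among the cells with the highest expression. An shRNA is processed in the cell into a short RNA that directs the cleavage of its matching transcript. Most loci carry an Ensembl gene ID, but the gene name table used here lists none, so 0 of the 9974 different IDs among the kept loci was paired with a gene name. SLC2A10 itself, the markers of smooth muscle and of other cell types, and the fixed lists of immune, contractile, matrix and metabolic genes were therefore not analysed here. The directions below therefore depend on the labels, with the targeted gene unchecked. Loci are named by Ensembl ID and by their position in the deposited coordinates, of which no source used here names the genome build.

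The 4 libraries listed 11641 to 11856 loci each, with a median level of 6.50 to 6.74 FPKM. Across the kept loci, which are not independent replicates, Pearson's r was 0.967 between the 2 controls, 0.970 between the 2 sequence 2 libraries and 0.909 to 0.917 between a control and a sequence 2 library. The files hold no read counts, so the depth behind each value is unknown.

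With sequence 2, 266 loci were lower than in the controls, 2.57% of the 10352 tested, and 129 were higher, 1.25% of those tested (limma, Benjamini-Hochberg adjusted p under 0.05). Together these were 395 loci, or 3.82% of those tested. None of the called loci overlapped between groups, which by itself says little, because 5260 of all kept loci (50.8%) did not overlap either. Both sequence 2 libraries lay below both controls at 1999 loci (19.3%) and above both at 3261 (31.5%). Of all kept loci, 171 passed the limit of level through the controls alone and 139 through sequence 2 alone, and these include 81 of the falls and 16 of the rises, which had to differ to be kept. The number of rises rested on every library of the comparison: it was 25 without control replicate 1, 29 without control replicate 2, 17 without sequence 2 replicate 1 and 20 without sequence 2 replicate 2. The falls numbered 146, 150, 186 and 160 without these libraries, in the same order.

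**Figure D1:**
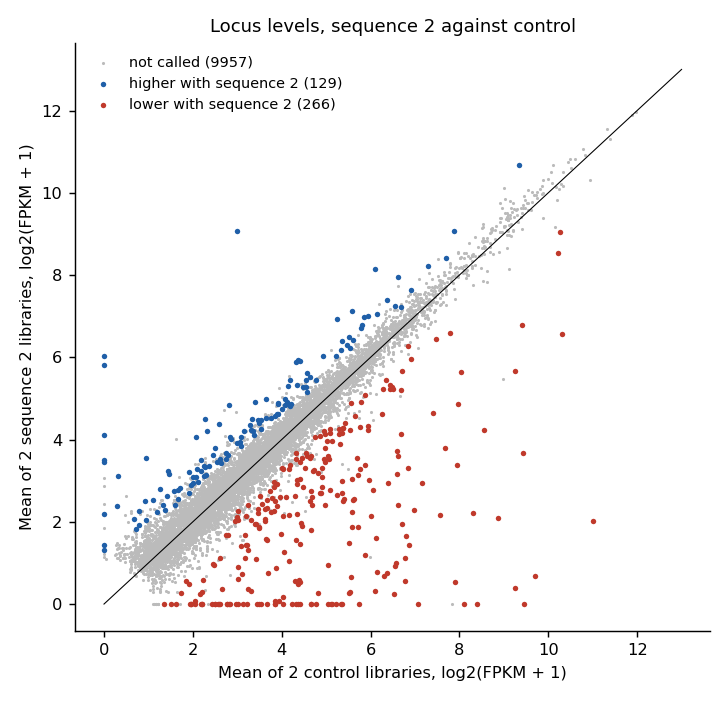
Mean log2(FPKM + 1) of the 2 sequence 2 libraries (vertical axis) against that of the 2 control libraries (horizontal axis), 1 point per kept locus, with the line of equal level. The 266 lower loci (red) reach far below the line, many of them down to 0, while most of the 129 higher loci (blue) stay close above it.

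The falls were larger than the rises. The median fitted change of the lower loci was -2.14 on the log2(FPKM + 1) scale, with a range from -0.57 to -9.46, and that of the higher loci was 1.03, from 0.54 to 6.21. The median over all kept loci was 0.06. At least 10-fold changes on this scale were fitted for 76 called falls (0.734% of loci tested) and for 6 called rises (0.058%). Of these, 40 falls and 1 rise were listed in all 4 libraries, so the other changes of this size include a library in which the locus was not listed. Beyond 4-fold there were 143 falls and 13 rises, and beyond 2-fold 234 and 67.

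The lower loci were among the more abundant transcripts of the control libraries. Their median control level was 24.3 FPKM, beside 8.22 FPKM for all kept loci, and their median level with sequence 2 was 3.48 FPKM. Of the 501 loci with a control mean over 100 FPKM, 38 were lower (7.58%) and 6 higher (1.20%), whereas of the 5431 loci with a control mean of 1 to 10 FPKM 60 were lower and 55 higher (1.01%). The control level is part of the contrast, so these shares are a description. The lower loci held 7.11% and 6.74% of the summed FPKM of the 2 controls and 0.973% and 0.989% with sequence 2. The higher loci held 1.07% in each control and 2.51% and 2.46% with sequence 2. Both sums are over loci chosen for their change.

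The most abundant control transcript among the large falls was ENSRNOG00000022256 (XLOC_013691), on the plus strand of chromosome 14 from 17210733 to 17212930. It stood at 1990.4 and 2105 FPKM in the controls and at 2.16 and 3.94 FPKM with sequence 2, so that 0.149% of the control mean was left. Its log2 change was -9.02 (standard error 0.22, limma adjusted p = 2.68e-05). ENSRNOG00000019050 (XLOC_001940, chromosome 1, 252906234 to 252940608) stood at 873 and 799 FPKM in the controls and at 0.670 and 0.526 FPKM with sequence 2, a log2 change of -9.03 (standard error 0.14, limma adjusted p = 7.30e-06). Summed with the other locus of this ID, described with the shared IDs further on, the log2 change was -6.01. At both loci the groups were far apart beside the spread of replicates, though the sequence 2 replicates of XLOC_013691 differed, at 2.16 and 3.94 FPKM. Both were chosen as large called falls, which favours this, so it is a description. ENSRNOG00000007539 (XLOC_038616, chromosome 6, 45655954 to 45669148) had 634 and 581 FPKM in the controls and 0.156 and 0.449 FPKM with sequence 2, a log2 change of -8.88 (standard error 0.15, limma adjusted p = 7.30e-06). ENSRNOG00000017414 (XLOC_003794, chromosome 1, 214249363 to 214252959) had 473 and 467 FPKM in the controls and kept 3.19 and 3.40 FPKM. Its log2 change of -6.78 had the smallest standard error of the 15 largest falls, 0.11 (limma adjusted p = 7.30e-06).

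Several falls went to loci that were not listed at all with sequence 2. ENSRNOG00000001959 (XLOC_009883, minus strand of chromosome 11, 37891156 to 37914983) had 760 and 651 FPKM in the controls and was listed at 0 in both sequence 2 libraries (limma adjusted p = 7.30e-06). All 3 of its transcript starts, at 79.4 to 380 FPKM in the controls, were at 0 with sequence 2. Its neighbour on the plus strand, ENSRNOG00000001963 (XLOC_009374, chromosome 11, 38034794 to 38035588), had 339 and 337 FPKM in the controls and was at 0 in both sequence 2 libraries (limma adjusted p = 0.000211). ENSRNOG00000059900 (XLOC_017596, chromosome 16, 19938784 to 19942343) had 255 and 290 FPKM in the controls, and ENSRNOG00000037198 (XLOC_032208, chromosome 4, 153805911 to 153834430) had 136 and 131 FPKM. Neither was listed in a sequence 2 library (limma adjusted p = 7.30e-06 and 2.90e-05). Of the 266 falls, 49 were listed in neither sequence 2 library and 18 in 1 of them, and 199 were listed in all 4 libraries. A locus at 0 has no fold change here, and since depth is unknown no lower limit was set on it. Of all 67 kept loci listed in both controls and neither sequence 2 library, these 49 were called.

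**Figure D2:**
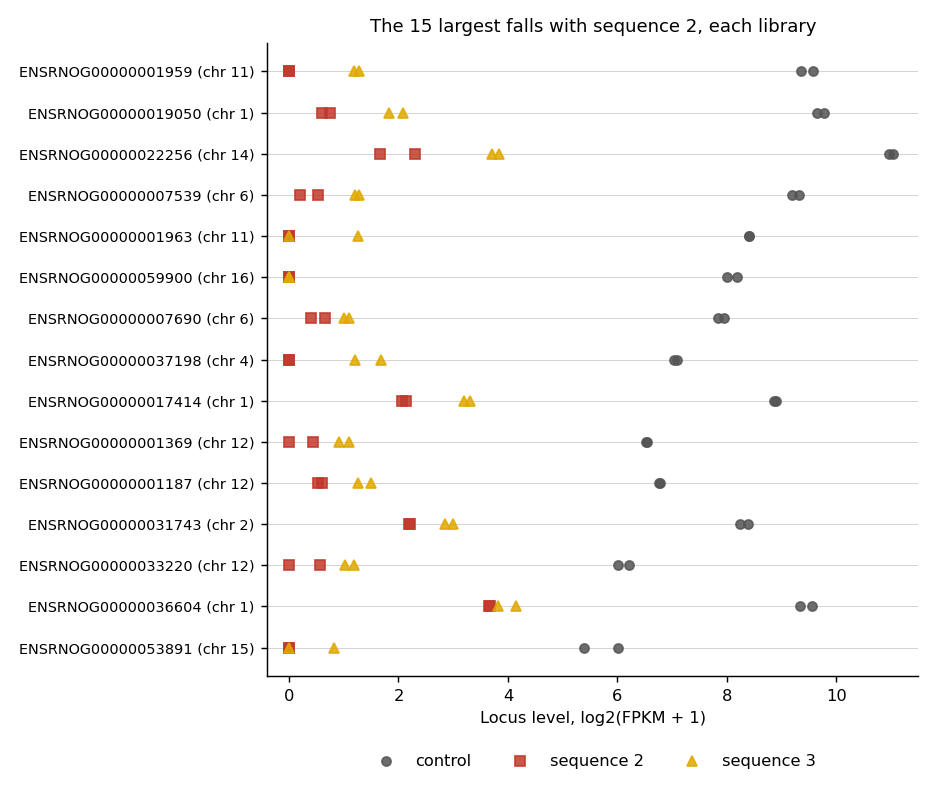
Level of the 15 largest falls in each library, log2(FPKM + 1), with controls as grey circles, sequence 2 as red squares and sequence 3 as yellow triangles. All control points lie above 5, and all sequence 2 points lie at or below 3.7, many of them at 0.

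Other abundant loci fell only in part. ENSRNOG00000026605 (XLOC_038992, chromosome 6, 127336305 to 127337791) had 1099.9 and 1424 FPKM in the controls and 97.8 and 89.9 FPKM with sequence 2, a log2 change of -3.72 (standard error 0.16, limma adjusted p = 0.000175). ENSRNOG00000017123 (XLOC_028473, chromosome 3, 114087287 to 114093309) went from 641 and 716 FPKM to 112 and 106 FPKM, a log2 change of -2.62 (standard error 0.12, limma adjusted p = 0.000213). ENSRNOG00000001414 (XLOC_010862, chromosome 12, 22641104 to 22651482) kept the largest share of these 3, with 1134 and 1249.9 FPKM in the controls and 364 and 375 FPKM with sequence 2 (log2 change -1.69, standard error 0.12, limma adjusted p = 0.00111). These loci were named for their level with sequence 2, after their values were seen. They were therefore still well expressed, in contrast to the loci at or near 0. ENSRNOG00000000239 (XLOC_006698, chromosome 10, 69423086 to 69424979) had the highest level left of any fall, 547 and 503 FPKM beside 1149 and 1324 FPKM in the controls. Its log2 change of -1.23 (standard error 0.15, limma adjusted p = 0.0098) lost its call when any 1 of the 4 libraries was left out (adjusted p up to 0.118).

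The lower loci often lay next to each other on the chromosome. Taking kept loci in order of their start, 95 of the 266 falls (35.7%) had a fall as a direct neighbour, in 35 runs of which 13 held 3 or more loci. For the rises these were 8 of 129 (6.20%) in 4 runs of 2. All but 1 of the 35 runs of falls held more than 1 ID, counting each locus without an Ensembl ID as its own. Some of these runs therefore held no more than 1 Ensembl ID. Runs can hold loci that overlap, and overlapping loci or loci on opposite strands may share reads, since no source used here says whether strand was kept. The share of falls in runs was 25.1% when only loci listed in all 4 libraries were tested, and it ranged up to 46.0% without control replicate 2.

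The longest run held 7 loci on chromosome 2 from 248178389 to 248690580, 6 of them on the plus strand. Their control means were 4.89 to 316 FPKM and their sequence 2 means 0 to 3.95 FPKM. The highest of them, ENSRNOG00000031743 (XLOC_023777), had 332 and 299.9 FPKM in the controls and 3.62 and 3.60 FPKM with sequence 2, a log2 change of -6.10 (standard error 0.12, limma adjusted p = 1.19e-05). The last locus of the run, ENSRNOG00000043426 (XLOC_023784), changed least, from 10.7 and 12.0 FPKM to 3.82 and 4.09 FPKM, and its call was lost without any 1 of the 4 libraries and with summed ends. Of the 7, 3 were at 0 in both sequence 2 libraries.

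On chromosome 16, 5 neighbouring loci between 29804728 and 31342102 had control means of 3.51 to 39.5 FPKM and were all at 0 in both sequence 2 libraries. 3 of these 5 had no Ensembl ID. The run of 5 on chromosome 18 from 55463482 to 55704904 included ENSRNOG00000038960 (XLOC_020356), at 113 and 117 FPKM in the controls and 1.56 and 1.87 FPKM with sequence 2 (log2 change -5.42, standard error 0.16, limma adjusted p = 3.95e-05). ENSRNOG00000041577 (XLOC_020774), on the opposite strand, lay within its span, and reads of the pair may not have been told apart. The run of 5 on chromosome 13, from 91921242 to 92090141, ended in ENSRNOG00000003486 (XLOC_012933), which kept 16.0 and 17.2 FPKM of 83.6 and 119 FPKM. The other 4 were at or below 0.426 FPKM in each sequence 2 library. Of these, XLOC_012384 and XLOC_012930 had no Ensembl ID. XLOC_012384 lay within ENSRNOG00000042990 (XLOC_012928) on the opposite strand, so reads of that pair may not have been told apart. On chromosome 12, from 41155485 to 41369261, 4 loci on both strands had control means of 6.14 to 91.9 FPKM. Their sequence 2 means were 0 to 0.512 FPKM. In the runs of 5, XLOC_012930 (chromosome 13) and XLOC_020358 (chromosome 18) lost their calls with a pseudocount of 0.1 and without some single libraries.

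**Figure D3:**
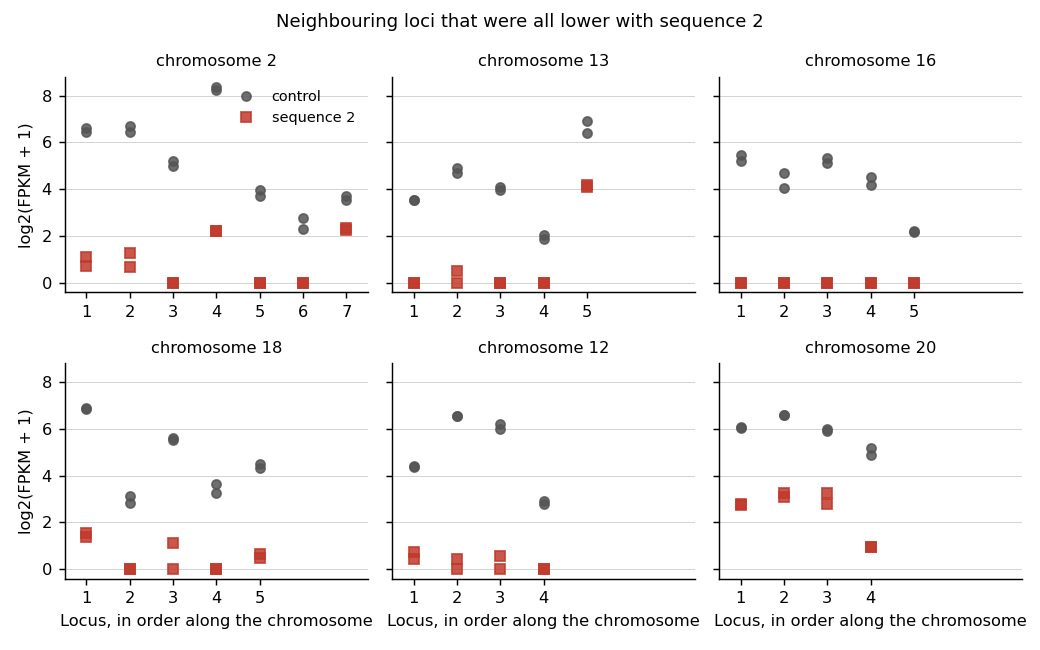
Levels in log2(FPKM + 1) of the loci in the 6 runs of 4 or more neighbouring falls, in order along the chromosome, with 1 point per library (controls as grey circles, sequence 2 as red squares). The chromosome 16 loci are all at 0 with sequence 2, whereas the 4 loci on chromosome 20 keep a level above 0.9 FPKM in both libraries.

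Shorter runs held some of the largest falls. ENSRNOG00000022256 was the middle of 3 neighbouring falls on chromosome 14 from 17195014 to 17235872. Those beside it were ENSRNOG00000022298 (XLOC_013690), at 22.4 and 26.0 FPKM in the controls and 0 in both sequence 2 libraries, and ENSRNOG00000022242 (XLOC_013692), at 14.1 and 12.5 FPKM in the controls and 0 and 0.113 FPKM with sequence 2. The 3 transcripts thus fell together from control levels that were far apart. On chromosome 6, ENSRNOG00000007539 on the minus strand and ENSRNOG00000007690 (XLOC_037781, 45683234 to 45694822) on the plus strand lay side by side, starting away from each other. The latter had 247 and 227 FPKM in the controls and 0.329 and 0.583 FPKM with sequence 2, a log2 change of -7.36 (standard error 0.15, limma adjusted p = 1.19e-05). ENSRNOG00000036604 (XLOC_001939, chromosome 1, 252894663 to 252900726), the neighbour of ENSRNOG00000019050, kept more of its level: it went from 748 and 641 FPKM to 11.6 and 11.8 FPKM, a log2 change of -5.77 (standard error 0.15, limma adjusted p = 2.90e-05).

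Falls were found on all of the autosomes and on chromosome X, and chromosome 20 had the highest share, 21 of 299 kept loci (7.02%). The next were chromosome 13 with 4.15% and chromosome 15 with 4.01%, and the lowest was chromosome 7 with 0.910%. On chromosome 20 the falls were gathered at 1 end, where 20 of the 21 lay between 2651599 and 8061818. Of the 133 kept loci that end within the first 10 Mb, a window chosen after the positions were seen, 20 were lower (15.04%) and 0 higher, while of the other 166 loci of that chromosome 1 was lower (0.602%) and 3 were higher. The median log2 change of the 20 falls was -2.92, and that of all 133 loci, the falls included, was -0.02. The loci between the falls were not summarised on their own. Rat chromosome 20 carries the major histocompatibility complex, whose products present peptides to T cells, and which of these loci belong to it was not determined.

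Most falls at this end of chromosome 20 left a measurable level. ENSRNOG00000051235 (XLOC_026917, 4541481 to 4561062) was the most abundant by the larger sum, with 372 and 371 FPKM in the controls and 19.1 and 16.3 FPKM with sequence 2. Its log2 change was -4.32 (standard error 0.12, limma adjusted p = 3.95e-05). Most of this level lay in a single transcript start, at 332 and 331 FPKM in the controls and 15.8 and 13.5 FPKM with sequence 2. Its transcript end stood at 40.0 and 40.3 FPKM in the controls and 3.32 and 2.77 FPKM with sequence 2. The neighbours ENSRNOG00000000459 (XLOC_026901) and ENSRNOG00000000455 (XLOC_026398), between 3973420 and 4009587 on opposite strands, had 64.9 and 66.6 FPKM and 96.1 and 94.2 FPKM in the controls. With sequence 2 they had 5.77 and 5.92 FPKM and 8.58 and 7.36 FPKM, log2 changes of -3.29 (standard error 0.12) and -3.43 (standard error 0.14; limma adjusted p = 0.000102 and 0.000129). Both thus kept nearly the same share, 8.89% and 8.37% of their control means. With summed ends in place of the larger sum, XLOC_026398 lost its call (log2 change -1.21, adjusted p = 0.0894), and XLOC_026399 (ENSRNOG00000000456) lies within it on the same strand.

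**Figure D4:**
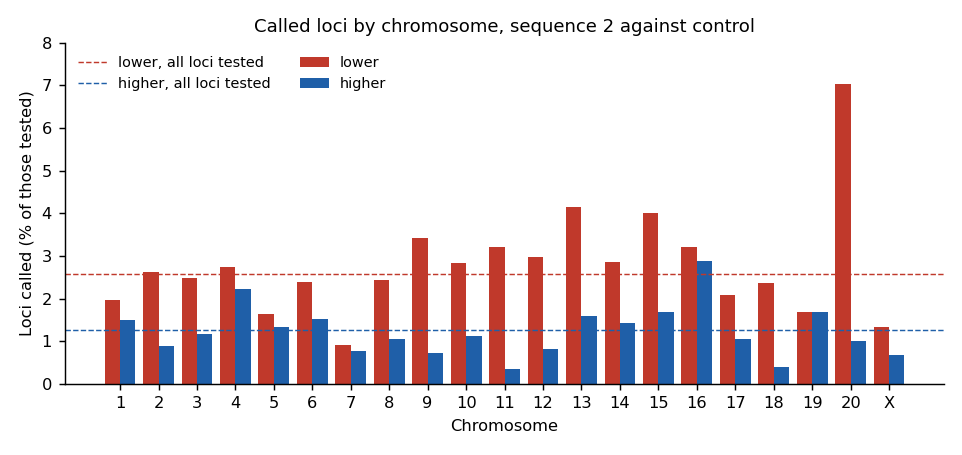
Percent of kept loci on each chromosome that were lower (red bars) or higher (blue bars) with sequence 2, with dashed lines at the percentages over all loci, 2.57% and 1.25%. Chromosome 20 reaches 7.02% for falls, and chromosome 16 has the highest share of rises, 2.88%.

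The rises were smaller and mostly of loci present in the controls: 119 of 129 were listed in all 4 libraries. ENSRNOG00000005695 (XLOC_033388, chromosome 4, 170856751 to 170860225) was the most abundant, with 566 and 735 FPKM in the controls and 1779 and 1498 FPKM with sequence 2, a log2 change of 1.34 (standard error 0.20, limma adjusted p = 0.0249). Its adjusted p was 0.103 to 0.206 when 1 of the 4 libraries was left out. ENSRNOG00000002843 (XLOC_014304, chromosome 14, 18860264 to 18862407) rose from 61.2 and 73.0 FPKM to 287 and 275 FPKM, a log2 change of 2.05 (standard error 0.12, limma adjusted p = 0.000583) that was called under every alternative run. A further rise on the same strand of chromosome 14, ENSRNOG00000002802 (XLOC_014300, 18743685 to 18745457), went from 209 and 257 FPKM to 546 and 534 FPKM, a log2 change of 1.22 (standard error 0.14, limma adjusted p = 0.00767). It was not called without control replicate 1 or either sequence 2 library (adjusted p up to 0.0897).

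Low loci also rose. ENSRNOG00000016945 (XLOC_035212, chromosome 5, 157282669 to 157285328) stood at 0.861 and 1.01 FPKM in the controls and at 11.2 and 10.4 FPKM with sequence 2, a log2 change of 2.61 (standard error 0.14, limma adjusted p = 0.000389) called under every alternative run. ENSRNOG00000003931 (XLOC_007045, chromosome 10, 97722936 to 97863311) was at 0.481 FPKM in control replicate 1, at 0 in control replicate 2 and at 7.80 and 7.60 FPKM with sequence 2 (limma adjusted p = 0.00165). That level lies in a transcript end, while its start was at 0.850 and 0 FPKM with sequence 2. ENSRNOG00000027592 (XLOC_033392, chromosome 4, 171069191 to 171176581) rose from 2.01 and 1.42 FPKM to 8.49 and 8.22 FPKM, a log2 change of 1.79 (standard error 0.17, limma adjusted p = 0.00381). In each of the 3 the sequence 2 replicates were closer to each other than to any control. The choice of large called rises favours this, so it is a description. The neighbours ENSRNOG00000037097 (XLOC_006732) and ENSRNOG00000029668 (XLOC_006733) on the plus strand of chromosome 10, from 71008709 to 71053191, formed 1 of the 4 runs of rises. The former went from 16.7 and 22.4 FPKM to 65.8 and 55.0 FPKM (limma adjusted p = 0.0251), and the latter from 3.99 and 8.18 FPKM to 27.5 and 28.1 FPKM (limma adjusted p = 0.0322). Neither was called without any 1 of the 4 libraries. XLOC_006733 was also not called with summed starts or without the filter on low levels.

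**Figure D5:**
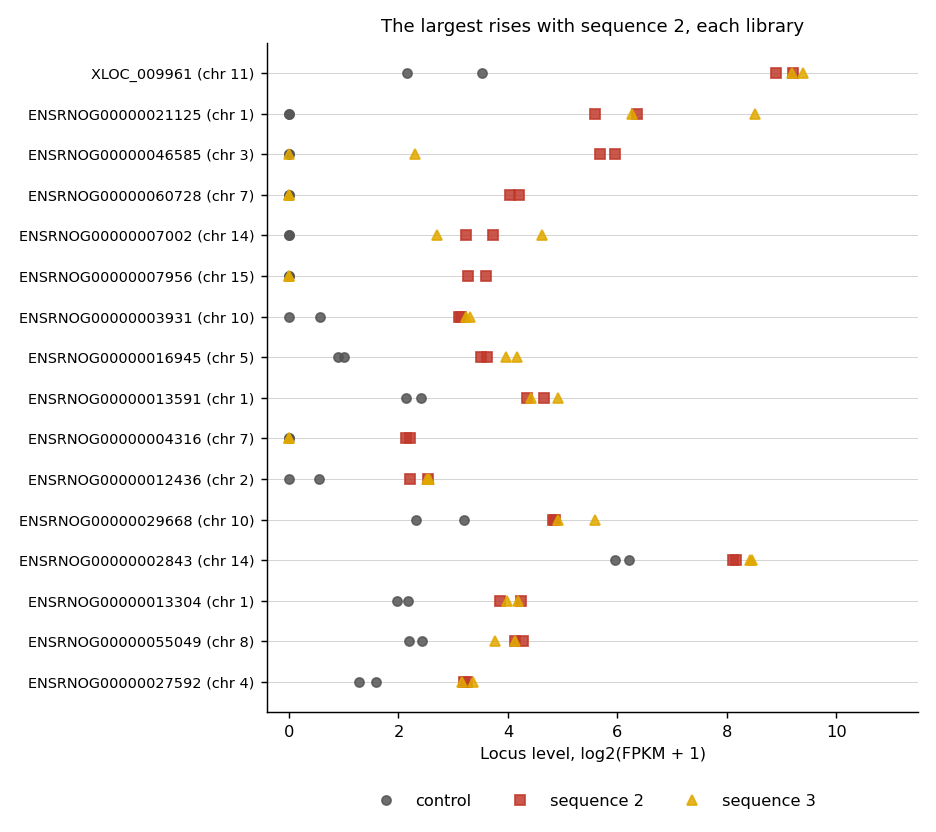
Level of the 15 largest rises with an Ensembl ID and of XLOC_009961 (top), log2(FPKM + 1), in each library, with controls as grey circles, sequence 2 as red squares and sequence 3 as yellow triangles. Several loci rise from 0 in both controls. Sequence 3 stays at 0 in both libraries at XLOC_040861 (ENSRNOG00000060728), XLOC_015386 (ENSRNOG00000007956) and XLOC_040404 (ENSRNOG00000004316). At XLOC_040404 the difference between the sequences did not pass the threshold (limma adjusted p = 0.0531). Its sequence 2 level was a transcript end alone in replicate 1 and a transcript start alone in replicate 2. Other loci of ENSRNOG00000060728, not drawn, were listed with sequence 3.

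Loci that went from not listed to listed made up 8 of the rises. Of all 19 kept loci listed in both sequence 2 libraries and neither control, these 8 were called. ENSRNOG00000021125 (XLOC_003941, chromosome 1, 222136571 to 222168190) was at 0 in both controls and at 80.6 and 47.3 FPKM with sequence 2 (limma adjusted p = 0.00939, and up to 0.129 without 1 of the 4 libraries). ENSRNOG00000046585 (XLOC_028747, chromosome 3, 150218230 to 150227405) was at 0 in the controls and at 61.0 and 50.1 FPKM with sequence 2 (limma adjusted p = 0.00982), through a transcript end alone, with no start listed in either library. Its call was lost without any 1 of the 4 libraries (adjusted p up to 0.130). ENSRNOG00000007956 (XLOC_015386, chromosome 15, 19690084 to 19716132) was at 0 in the controls and at 8.65 and 11.2 FPKM with sequence 2 (limma adjusted p = 0.00058), and was called under every alternative that could be run on it.

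The start and end sums of a locus did not always move together. The largest rise of all, XLOC_009961, carried no Ensembl ID and was named after its values were seen. It lies on the minus strand of chromosome 11 from 60679758 to 60728524. It had 10.6 and 3.44 FPKM in the controls and 593 and 475 FPKM with sequence 2, a log2 change of 6.21 (standard error 0.43, limma adjusted p = 0.00108), and all of this lay in its transcript starts. With summed ends its log2 change was 0.0042 (limma adjusted p = 0.999). The sequence 2 replicates of XLOC_009961 differed by start. They had 263 and 0 FPKM from 60679758, 222 and 128 FPKM from 60695292, and 105 and 345 FPKM from 60695442. ENSRNOG00000013591 (XLOC_003497, chromosome 1, 174350597 to 174379566) rose in its starts, so that its level went from 3.40 and 4.33 FPKM to 24.3 and 19.3 FPKM, a log2 change of 2.22 (standard error 0.22, limma adjusted p = 0.00479). Its transcript end moved the opposite way, from 3.12 and 4.03 FPKM to 0 in both sequence 2 libraries, and summed ends gave a log2 change of -2.19 (limma adjusted p = 0.00662).

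Across the called loci, 215 of the 257 falls that could be tested by summed starts were also called that way, and 217 of 236 by summed ends. For the rises these were 83 of 119 and 94 of 109. In 51 falls with 2 or more starts listed in both controls, 105 of 123 such starts were lower in both sequence 2 libraries than in both controls and 1 was higher, and in 35 of the 51 every such start was lower. These starts enter the level by which the loci were called, and they cover 51 of the 266 falls, so the counts are a description.

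Some loci share an Ensembl ID, and there the level of a locus is not that of the gene. ENSRNOG00000060728 (XLOC_040861, chromosome 7, 140615663 to 140638999) was at 0 in both controls and at 17.5 and 15.4 FPKM with sequence 2 (limma adjusted p = 0.000165). XLOC_041927, with the same ID on the opposite strand, stood at 136 and 178 FPKM in the controls and 152 and 177 FPKM with sequence 2, and XLOC_040860 at 0 and 16.5 FPKM and then at 11.6 and 9.96 FPKM. Summed over the ID, the log2 change was 0.23 (limma adjusted p = 0.663). ENSRNOG00000019050 also has 2 kept loci: XLOC_001940 was at 0.670 and 0.526 FPKM with sequence 2, while XLOC_004160, on the opposite strand and spanning it (252849619 to 252959432), had 23.6 and 21.1 FPKM in the controls and 11.9 and 11.7 FPKM with sequence 2. The log2 change of XLOC_004160 was -0.87 (standard error 0.13, limma adjusted p = 0.0228), and that of the sum over the ID was -6.01, beside -9.03 for XLOC_001940 alone. The 3 loci of ENSRNOG00000053891 on chromosome 15 all fell to 0 in both sequence 2 libraries, from control means of 1.83 to 52.2 FPKM. Of the kept loci, 156 share their ID with another.

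The largest falls were also low with sequence 3. ENSRNOG00000022256 had 13.3 and 12.0 FPKM with sequence 3, ENSRNOG00000019050 had 3.23 and 2.53 FPKM, and ENSRNOG00000059900 was at 0 in both libraries. XLOC_009961 stood at 584 and 674 FPKM with sequence 3, and ENSRNOG00000005695 at 2059 and 2620 FPKM. The comparisons of both sequences share the control libraries, so these values are given side by side only. Tested against each other in the same model, sequence 3 and sequence 2 differed at 8 loci (0.0773% of the 10352 tested, limma adjusted p under 0.05). At an unadjusted p under 0.05 they differed at 550 of the 10352. Of the 266 falls 3 were among the 8 and 67 among the 550, and of the 129 rises 2 and 20. The called loci were chosen with the same sequence 2 libraries, so these counts are a description. A locus missing from these counts is not shown to be equal with both sequences.

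Changes of at least 10-fold were also fitted at 6 loci that were not called, named here after their values were seen. ENSRNOG00000047746 (XLOC_000048, chromosome 1, 11903552 to 11973056) had 228 and 227 FPKM in the controls and was at 0 in both sequence 2 libraries, yet its adjusted p was 0.235. With sequence 3 it was at 0 in replicate 1 and at 564 FPKM in replicate 2, and that spread enters the shared model. In a fit of the 4 libraries alone its adjusted p was 3.57e-05. ENSRNOG00000062298 (XLOC_000808, chromosome 1, 101120356 to 101137221) was at 0 in both controls and at 20.6 and 12.6 FPKM with sequence 2 (limma adjusted p = 0.219, and 0.00251 in the fit of 4 libraries), and at 0 and 22.1 FPKM with sequence 3. At ENSRNOG00000051922 (XLOC_031512, chromosome 4, 31227996 to 31299424) the control levels were far apart, at 109.8 and 14.6 FPKM, with 1.52 and 0.926 FPKM for sequence 2 (limma adjusted p = 0.0655). The 109.8 FPKM was a transcript end that stood at 0 in every library but control replicate 1. The transcript start of this locus stood at 16.4 and 14.6 FPKM in the controls. The other 3 were XLOC_038042, XLOC_043013 and ENSRNOG00000050630 (XLOC_043319), with adjusted p of 0.0874, 0.531 and 0.641. Of these, XLOC_038042 was called in the fit of 4 libraries (adjusted p = 0.000955).

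Features of position, strand and annotation were also compared. Span and number of starts come from the listed events, and overlap was counted among kept loci only. These features therefore depend in part on the levels that were tested. The median span of a fall was 19136 bases and that of a rise 24831 bases, beside 22288.5 bases over all kept loci. Plus-strand loci made up 53.4% of the falls and 55.0% of the rises, beside 52.7% of all. Several starts were listed for 34.6% of the falls and 24.8% of the rises, beside 32.0% of all. Loci without an Ensembl ID made up 4.89% of the falls (13 loci), 0.775% of the rises (1 locus) and 2.87% of all. A kept locus on the other strand overlapped 13.2% of the falls and 6.98% of the rises, beside 11.0% of all, and for these pairs reads may not have been told apart. These shares are descriptions and were not tested.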

How the data were processed

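RNA of 6 libraries was sequenced, and the 4 libraries of control virus and sequence 2 are compared here. The authors deposited FPKM for the transcript starts, the ends and the splicing events of each locus, not read counts. Per the labels their processing notes name HISAT2 2.0.1, StringTie 1.0.4, HTSeq 0.6.1, Trimmomatic 0.30, bcl2fastq 2.17.1.14 and SAMtools 0.1.18, with no role or order, and no source used here names the genome build. Low FPKM values showed no steps of whole reads: the best scale put 12.9% and 11.9% of low loci on whole steps in the 2 pairs of replicates, beside a median of 6.64% and 6.78% over scales. Depth is therefore unknown and no count test was run.

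Repeated events were dropped. FPKM was summed per locus over starts and over ends, and the larger sum was the level (0 if not listed). Loci of level 1 or more in at least 2 of the 4 libraries were kept. Levels as log2(FPKM + 1), which understates changes of low loci, were tested with limma 3.58.1 (R 4.3.3, mean-variance trend) with 1 mean per group over all 6 libraries, which share 1 estimate of the spread with 3 residual degrees of freedom. The contrast was sequence 2 minus control, two-sided, with Benjamini-Hochberg adjustment over 10352 loci. Named loci were the 15 largest called falls, the 15 largest called rises with an Ensembl ID, the highest falls to and rises from 0, and, chosen after their values were seen, XLOC_009961, loci in runs, on chromosome 20 or sharing an ID, the called loci highest with sequence 2, the 8 loci that differ between sequences, 1 pair of neighbouring rises and the uncalled changes of at least 10-fold. A run is 2 or more consecutive kept loci called in the same direction. The comparison, the lists and the tests were chosen with earlier results of these data known. The fit was tested on simulated data. Tables were made with Python 3.11.15, pandas 2.3.3 and numpy 2.4.6, and figures with matplotlib 3.10.9.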

Additional observations from a re-analysis of the deposited data

Results flagged for a closer look

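At 5 loci called with sequence 2 the effects of the 2 interference sequences differed from each other, by the test of sequence 3 minus sequence 2 in the same limma fit over 10352 loci. Each of the 5 was at 0 in both libraries of 1 sequence. No cause of these differences was tested.

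Of these, 3 were falls found with sequence 2. ENSRNOG00000046447 (XLOC_036362, chromosome 5, 164560437 to 164585634) had 6.46 and 7.61 FPKM in the controls, was at 0 in both sequence 2 libraries and had 5.52 and 6.49 FPKM with sequence 3. The difference was 2.80 on the log2 scale (limma adjusted p = 0.00975), and the fall itself was not called by summed starts or by summed ends. Its sequence 3 level came from a start in replicate 1, with the end at 0, and from an end in replicate 2, with the start at 0, so by either sum alone 1 sequence 3 library was at 0. ENSRNOG00000035631 (XLOC_048175, chromosome X, 3661418 to 3685506) had 7.26 and 9.25 FPKM in the controls, 0 in both sequence 2 libraries and 4.21 and 4.87 FPKM with sequence 3. Its difference was 2.47 (limma adjusted p = 0.0246), and the fall was not called by summed ends. Its sequence 3 level came from different starts in the 2 replicates, and its end was at 0 in replicate 2. ENSRNOG00000029686 (XLOC_031429, chromosome 4, 9809531 to 9810649) had 3.23 and 4.02 FPKM in the controls, 0 in both sequence 2 libraries and 3.98 and 5.21 FPKM with sequence 3, a difference of 2.47 (limma adjusted p = 0.0353).

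The other 2 were rises found with sequence 2 and were at 0 in both controls and both sequence 3 libraries. ENSRNOG00000060728 (XLOC_040861), with 17.5 and 15.4 FPKM with sequence 2, differed by -4.12 (limma adjusted p = 0.00559). ENSRNOG00000007956 (XLOC_015386), with 8.65 and 11.2 FPKM with sequence 2, differed by -3.44 (limma adjusted p = 0.00975). XLOC_040860, which shares the ID of XLOC_040861 and overlaps it on the same strand, had 26.0 and 5.35 FPKM with sequence 3. XLOC_041927, with that ID on the opposite strand, had 117 and 178 FPKM with sequence 3. Other signal of ENSRNOG00000060728 was therefore present with sequence 3.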

How the results depend on the processing

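The falls numbered 146 to 274 and the rises 17 to 139 when each of the 6 libraries was left out in turn, and changes of at least 10-fold 71 to 78 falls and 2 to 7 rises. Where this left a group with 1 library, that library was assumed to vary like the others. At an adjusted p under 0.01 there were 176 falls and 36 rises, and at an unadjusted p under 0.05 there were 722 and 993, so that the balance turned to rises. With a log2 change of at least 1 required, 67 rises were left. With the replicate number as a block, 228 falls and 66 rises were called, but the deviations of same-numbered libraries correlated at -0.0698, and the labels do not say that the numbers pair the libraries. Changes of at least 10-fold were 10 rises with a pseudocount of 0.1, 3 rises with summed ends, and 40 falls and 1 rise over loci listed in all 4 libraries, which leaves out loci at 0. Other scalings, filters, pseudocounts, sums of starts, of ends or per Ensembl ID, the 4-library fit and the fit without trend gave 195 to 291 falls and 94 to 178 rises.

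Of 53 named falls followed across the alternatives, 44 kept their call under every one run, and of 22 named rises 5 did. With summed ends the direction changed for XLOC_003497 (-2.19) and XLOC_002950 (-0.37). It also changed for 3 loci that were not called, XLOC_020703, XLOC_023652 and XLOC_043319, whose log2 changes with 1 library left out ranged from -0.14 to 0.28, from -0.28 to 0.0204 and from -7.36 to 0.0538. The cause was not tested. The alternatives planned for gene lists were not run, since no ID had a name. Depth is unknown, so a locus at 0 may have been present at a level below detection.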

Other observations

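Sequence 3 and sequence 2 also differed at 3 loci that were not called between sequence 2 and control. ENSRNOG00000014333 (XLOC_023652, chromosome 2, 219086006 to 219093027) had 12.4 and 11.0 FPKM in the controls, 9.47 and 11.9 FPKM with sequence 2 and was at 0 in both sequence 3 libraries (log2 difference -3.54, limma adjusted p = 0.00559). XLOC_024849, with the same ID on the opposite strand, stood between 346 and 572 FPKM in all 6 libraries. XLOC_023653, which has the same ID and overlaps XLOC_023652 on the same strand (219087921 to 219097015), had 7.95 and 80.3 FPKM in the controls, 41.9 and 6.61 FPKM with sequence 2 and 57.8 and 39.6 FPKM with sequence 3, so other signal of this ID and strand was present with sequence 3. XLOC_020703 (chromosome 18, 35679020 to 35908704), which carries no Ensembl ID, had 11.2 and 8.08 FPKM in the controls, 10.2 and 9.86 FPKM with sequence 2 and 0 with sequence 3 (log2 difference -3.46, limma adjusted p = 0.00787). ENSRNOG00000048308 (XLOC_014169, chromosome 14, 2463643 to 2474780) had 3.86 and 7.11 FPKM in the controls, 7.91 and 8.16 FPKM with sequence 2 and 0 with sequence 3 (log2 difference -3.17, limma adjusted p = 0.0353).

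ENSRNOG00000021058 (XLOC_002950, chromosome 1, 101805166 to 101819478) rose with sequence 2, from 2.54 and 2.99 FPKM to 7.76 and 8.85 FPKM (log2 change 1.31, standard error 0.15, limma adjusted p = 0.00881), and had 2.85 and 2.84 FPKM with sequence 3. It was not called without any 1 of the 4 libraries (adjusted p 0.0649 to 0.0945), and with summed ends its log2 change was -0.37 (limma adjusted p = 0.837). The difference between the sequences did not pass the threshold (limma adjusted p = 0.102). This locus was chosen after its values were seen.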
